A study of Mus musculus with 22 samples.

Results

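The mRNAs of the translation initiation and elongation factors were followed through total RNA, polysomes and subpolysomes of mouse bladder organoids with and without Arid1a, and through bladder cancer organoids. The set was defined by symbol: Eif followed by a digit from 1 to 6, without the eIF2 alpha kinase genes Eif2ak1 to Eif2ak4 and the Y-linked Eif2s3y, every symbol starting with Eef1, and in addition Pabpc1 and Tpt1. It held 58 of the 24421 genes counted. Primary bladder urothelial organoids, either Arid1a wild type (WT) or Arid1a knockout (KO), gave 18 libraries, with 3 per genotype from each of total RNA, polysomes and subpolysomes. Bladder cancer organoids gave 4 total RNA libraries, 2 labelled WT and 2 labelled KO. Arid1a encodes a subunit of the BAF chromatin remodelling complex. The sources used here give neither the part of Arid1a that was removed nor the way it was removed, and neither strain, age nor any treatment. The labels do not tie replicates to separate animals or cultures, so all p-values measure only the spread among these libraries, and that spread may be technical.

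Translation starts when the small ribosomal subunit, loaded with eIF1, eIF1A, eIF3, eIF5 and the ternary complex of eIF2, GTP and initiator tRNA, is brought to the capped end of an mRNA by eIF4F and scans to the start codon. eIF2B reloads eIF2 with GTP, the 4E-binding proteins keep eIF4E from eIF4G until mTOR phosphorylates them, and eEF1A then delivers aminoacyl-tRNA to the elongating ribosome. Many mRNAs of this machinery begin with a 5′ terminal oligopyrimidine (TOP) tract, a C followed by a run of C and T bases, and their loading onto ribosomes is known to depend on mTOR and the cap-binding protein LARP1. Of the set, 10 that are generally known as TOP mRNAs were listed, with earlier results of these data known: Eef1a1, Eef1b2, Eef1d, Eef1g, Eif3e, Eif3f, Eif3h, Eif4b, Pabpc1 and Tpt1.

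Total counts per library were 66227600 to 74605489 for primary total RNA, 64911189 to 76594655 for polysomes, 39245248 to 51628570 for subpolysomes and 48429672 to 55431426 for cancer organoids. All 14 urothelial markers checked exceeded 1 CPM, the count relative to the scaled size of its library, in every primary library. In the cancer libraries 8 of the 14 did so throughout, Krt5 lay at 6580 to 9250 CPM, and the umbrella cell genes Upk2 and Upk3a were at 0. The 5 fibroblast markers summed to 2.54 to 3.51 CPM in WT and 1.34 to 1.63 CPM in KO total RNA, and to 3.34 to 4.99 CPM in WT and 1.38 to 2.29 CPM in KO subpolysomes. The 4 endothelial markers summed to 0.277 to 0.700 CPM in primary total RNA. The 4 smooth muscle markers summed to 4.90 to 5.57 CPM in WT and 16.1 to 17.5 CPM in KO total RNA, nearly all from Acta2, with Myh11 at 0.0531 CPM or less. The 5 immune markers summed to 7.81 to 9.41 CPM in WT and 17.5 to 19.7 CPM in KO, nearly all from Cd68, with Ptprc at 0. The smooth muscle and immune sums were also higher in KO than in WT in polysomes and subpolysomes, and the part of these markers in the genotype differences below was not tested. In total RNA Arid1a itself fell from 113.9, 130.3 and 116.3 CPM (WT) to 74.89, 74.75 and 83.79 CPM (KO) (log2 -0.60, SE 0.06, edgeR quasi-likelihood test, adjusted p 5.68e-06). In polysomes it read 34.58, 24.81 and 21.63 CPM (WT) and 23.58, 19.25 and 13.89 CPM (KO), which overlapped and did not pass (log2 -0.48, SE 0.20, edgeR adjusted p 0.0817). In subpolysomes it was not lower, at 60.32, 62.77 and 55.77 CPM (WT) and 75.33, 64.28 and 62.38 CPM (KO) (log2 0.19, SE 0.12, edgeR adjusted p 0.276). The genotypes of the 12 fraction libraries therefore rest on their labels, and every KO or WT direction given for a fraction is that of the libraries so labelled. In the cancer organoids it read 66.91 and 196.3 CPM in the libraries labelled WT and 174.7 and 56.75 CPM in those labelled KO, so that 1 library of each label ran against it.

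Sequence around the annotated transcription start could be read for 43 of the 58 genes from RefSeq promoters (GRCm38.p6). The windows below run from 10 bases before the start to 20 bases from it, 5′ to 3′ on the gene's own strand. They therefore span the promoter edge and the beginning of the 5′ UTR in the first exon. Capitals mark a run of at least 5 C or T bases that begins with C within 10 bases of the start. They show, in order and as chosen examples, 4 mRNAs that were depleted from polysomes and carry such a run, 2 listed TOP mRNAs without it in this window, and 2 mRNAs enriched in polysomes.
Eif3f, chr7:108934405-108934434, plus strand: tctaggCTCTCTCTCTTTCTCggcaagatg
Eef1a1, chr9:78481705-78481734, minus strand: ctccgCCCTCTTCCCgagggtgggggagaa
Eif4b, chr15:102073763-102073792, plus strand: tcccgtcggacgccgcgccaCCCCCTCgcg
Eif3l, chr15:79075213-79075242, plus strand: gagttcttcttccgCTCTCTCCCacgggct
Tpt1, chr14:75845246-75845275, plus strand: cgctgacgacagttccgggggagccgcgga
Eef1b2, chr1:63176821-63176850, plus strand: ctgcagttccgccggaagtagccgaggcct
Eif2s1, chr12:78862062-78862091, plus strand: ggttgggcgaagcgcacgctgaggagcttc
Eif1ax, chrX:159372168-159372197, plus strand: ggaggagggcggggagaagccccgcccgct

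A C at the annotated start itself, read on as at least 5 C or T bases, was present in 2 of the 43 genes, Eif3f and Eif2s3x. It was present in 813 of the 27025 mouse genes with a promoter entry (3.01%), or 823 of 32851 promoters (2.51%). Such a run may begin before the start, and the marked run began at -4 in Eif3f and at -1 in Eif2s3x. A run that began with C within 10 bases of the start was present in 13 of the 43 genes (30.2%). The shares were 34.4% of genes and 30.7% of promoters, searched on the gene's own strand only. Of the 10 listed TOP mRNAs, 5 had an entry (Eef1a1, Eef1b2, Eif3f, Eif4b and Tpt1), and 3 of these held a run within 10 bases. The others on that list are Eef1d, Eef1g, Eif3e, Eif3h and Pabpc1. The windows shown do not stand for the set, and a link between run and fraction was not tested. Eif3b, and Eif4e at some of its annotated starts, also held such a run although both mRNAs were higher in WT polysomes. The depleted Eif2a and Eif3k held none. The match is a description of annotated starts, which can lie some bases away from the start used in these cells.

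Messages loaded with several ribosomes sediment into the polysome fraction, whereas messages with few ribosomes or none stay in the subpolysome fraction. Between these fractions the factor mRNAs spread over almost 7 log2 units. The mRNAs of the poly(A)-binding protein, of eEF1A, of the helicase cofactor eIF4B and of several eIF3 subunits took a larger share of the subpolysome libraries, and those of eIF6, eIF1A, eIF2 alpha and eIF5A a larger share of the polysome libraries. In WT organoids 18 of the 54 factor mRNAs tested were higher in polysomes (background 32.8% of 13392 genes) and 31 were lower (background 30.9%), counting an adjusted p under 0.05 in edgeR's quasi-likelihood test, and 63.7% of all genes were called in either direction. In KO organoids 16 were higher (background 31.7%) and 29 lower (background 29.9%), beside 61.6% of all genes in either direction. The median log2 ratio of polysome over subpolysome was -0.51 in WT and -0.46 in KO, beside 0.01 for all genes in both. Depletion by more than 4-fold was reached by 14 of the 54 in WT (25.9%, against 6.97% of all genes tested) and by 13 in KO (24.1% against 6.12%). Values are relative to the scaled size of a library, so these ratios describe neither the plain share of its counts nor the amount of RNA. With scaling over all 22 libraries, scaled sizes lay below total counts in every subpolysome library and above them in every polysome library. WT replicate 1 had 33573447 against 47177882 in subpolysomes and 83353624 against 71336759 in polysomes. As plain shares of counts the ratios would thus be higher, and ratios modestly below 0 could change side. Ratios as low as the WT median of -0.51 are among these.

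**Figure D1:**
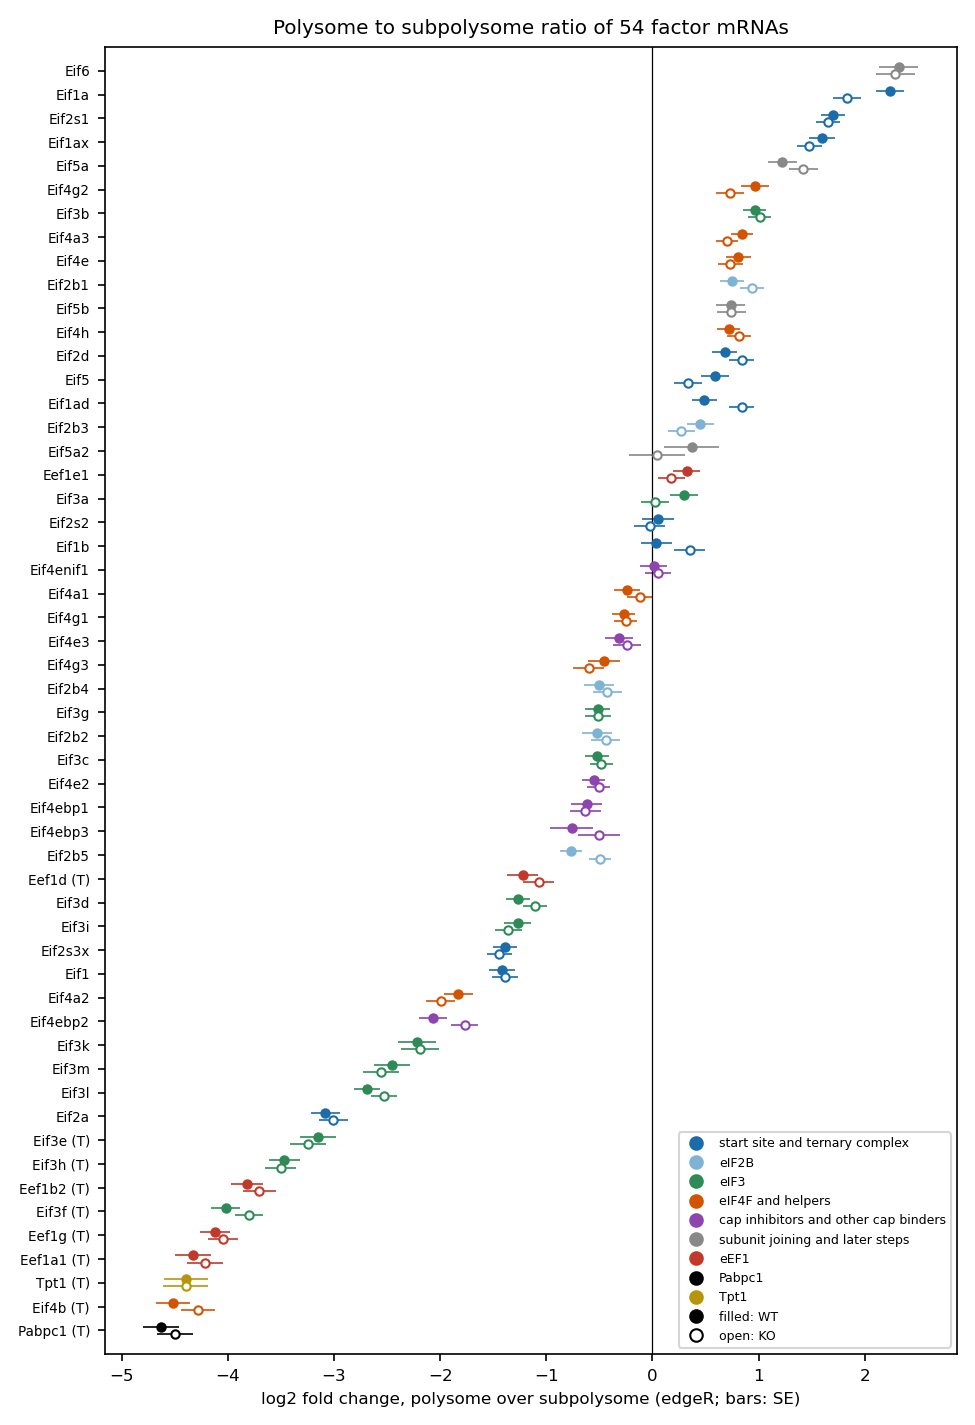
Log2 fold change of polysome over subpolysome (x axis, edgeR estimate with SE) for the 54 factor mRNAs tested, ordered by the WT value, with WT filled and KO open, coloured by role, and (T) marking the listed TOP mRNAs. The 10 TOP mRNAs all lie left of 0, from -4.63 for Pabpc1 to -1.22 for Eef1d in WT, and filled and open symbols of a gene lie close together.

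Pabpc1 encodes the cytoplasmic poly(A)-binding protein, which links the tail of an mRNA to eIF4G. Its level was 8863, 8802 and 8303 CPM in WT subpolysomes and 404.5, 355.3 and 327.2 CPM in WT polysomes. In KO organoids the values were 7857, 6717 and 6472 CPM in subpolysomes and 352.6, 326.4 and 269.2 CPM in polysomes. Every subpolysome library lay above every polysome library by more than an order of magnitude. Pabpc1 was 24.8-fold lower in WT polysomes (log2 -4.63, SE 0.17, edgeR adjusted p 6.98e-15) and 22.6-fold lower in KO polysomes (log2 -4.50), the most depleted factor mRNA in both genotypes.

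Among the elongation factor mRNAs, Eef1a1 encodes the GTPase that carries aminoacyl-tRNA, and Eef1b2, Eef1d and Eef1g encode the subunits of its exchange factor. Eef1a1 read 52310, 52530 and 52670 CPM in WT subpolysomes but 2755, 2946 and 2430 CPM in WT polysomes, and in KO 52970, 44240 and 45420 CPM against 2608, 2733 and 2485 CPM. The fractions did not overlap in either genotype. The log2 ratio was -4.33 (SE 0.17) in WT and -4.21 (SE 0.17) in KO. Eef1a1 alone made up 2.85 to 3.72% of all counts in subpolysome libraries and 0.257 to 0.328% in polysome libraries.

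Eef1g and Eef1b2 showed nearly the same depletion, at log2 -4.12 and -3.82 in WT and -4.05 and -3.70 in KO. Eef1d, which encodes the remaining exchange subunit, was depleted less, with 558.4, 729.5 and 740.9 CPM in WT subpolysomes against 272.1, 293.8 and 333.6 CPM in WT polysomes (log2 -1.22, SE 0.15). Eef1e1, whose product belongs to the multi-tRNA synthetase complex, lay on the other side, at log2 0.33 in WT (edgeR adjusted p 0.0302) and 0.18 in KO (adjusted p 0.241). Its WT call was lost under upper quartile scaling (adjusted p 0.2) and without WT polysome replicate 2 or 3. Eef1a2, the eEF1A isoform of muscle and neurons, had at most 1 count in any library and was not tested.

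Tpt1 encodes the translationally controlled tumour protein, a classical TOP mRNA product that binds eEF1A. It measured 16270, 20230 and 20820 CPM in WT subpolysomes and 789.7, 957.1 and 1074 CPM in WT polysomes. The KO values were 23920, 16740 and 15530 CPM and 794, 867.4 and 1049 CPM. The log2 ratio was -4.40 in both genotypes (SE 0.21).

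Of eIF3, the large scaffold that binds the small subunit, 12 of 14 subunit mRNAs were tested. In WT 2 of them were higher in polysomes (background 32.8%) and 10 lower (background 30.9%), with a median log2 of -1.74. In KO 1 was higher (background 31.7%) and 10 lower (background 29.9%), with a median of -1.77. Eif3f measured 2895, 3156 and 3016 CPM in WT subpolysomes against 195.8, 181.8 and 200.6 CPM in WT polysomes (log2 -4.02, SE 0.14), and Eif3h 2406, 2414 and 2373 against 228.3, 239.8 and 204.5 CPM (log2 -3.47, SE 0.15). Both genes encode subunits with an MPN fold, and neither overlapped between fractions.

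The eIF3 mRNAs were also described by place in the complex, a grouping that was chosen after the values were seen and has no test. Within the structured core, the 6 mRNAs of subunits e, f, h, k, l and m had log2 ratios between -4.02 and -2.22 in WT and between -3.80 and -2.19 in KO. The other 2 core subunits, a and c, lay between -0.52 and 0.30 in WT and between -0.48 and 0.02 in KO. The 4 subunits b, d, g and i outside the core lay between -1.27 and 0.97 in WT and between -1.36 and 1.01 in KO, a range that includes a and c, so the values did not separate the core from the rest. Eif3b, the scaffold of the peripheral module, was the eIF3 mRNA with the highest ratio, with 183.5, 170.1 and 168.8 CPM in WT polysomes and 87.81, 87.93 and 82.34 CPM in WT subpolysomes (log2 0.97, SE 0.11). Of the 6 depleted subunits, only e, f and h were on the TOP list, and k, l and m were not. The WT call for Eif3a (log2 0.30, edgeR adjusted p 0.0482) was lost in 6 of 18 alternatives: DESeq2, 2 other scalings, and without WT subpolysome replicate 3 or WT polysome replicate 1 or 2.

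The mRNAs of the 11 start site and ternary complex factors ran mostly the other way. In WT polysomes 6 were higher (background 32.8%) and 3 lower (background 30.9%). In KO polysomes 7 were higher (background 31.7%) and 3 lower (background 29.9%). Eif1a and Eif1ax, near-identical copies encoding the scanning factor eIF1A, read 361.6, 478.4 and 496.2 CPM and 185.9, 208.3 and 195.6 CPM in WT polysomes. In WT subpolysomes they read 89.3, 86.11 and 98.19 CPM and 60.67, 66.68 and 60.42 CPM. Neither copy overlapped between fractions, and the log2 ratios were 2.24 (SE 0.13) and 1.60 (SE 0.12). Reads from such copies could be exchanged between them.

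Eif2s1, the alpha subunit of eIF2 that stress kinases phosphorylate, was 3.26-fold higher in WT polysomes, at 305.9, 336.2 and 341.1 CPM against 102.9, 99.42 and 88.86 CPM (log2 1.70, SE 0.11), and its KO ratio was 1.65. The beta subunit Eif2s2 did not pass the test in either genotype (log2 0.05, 95% interval -0.25 to 0.36, in WT). The X-linked gamma subunit Eif2s3x was lower in polysomes (log2 -1.39 in WT and -1.44 in KO). The ratios of the 3 mRNAs of this heterotrimer thus spanned more than 3 log2 units in WT.

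Eif2a, which encodes a tRNA-binding protein used when eIF2 is limiting and is not a subunit of eIF2, was depleted from polysomes 8.48-fold in WT (61.52, 68.6 and 65.4 CPM against 510.3, 556.5 and 532.6 CPM; log2 -3.08, SE 0.14). Eif1, the guardian of start codon choice, was lower at log2 -1.42 in WT and -1.39 in KO. Of the eIF2B exchange factor, Eif2b1 and Eif2b3 were higher in WT polysomes (log2 0.75 and 0.45) and Eif2b2, Eif2b4 and Eif2b5 lower (log2 -0.52, -0.51 and -0.77). In KO the call for Eif2b3 missed the threshold (log2 0.27, edgeR adjusted p 0.0697).

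Within eIF4F and its helpers the closest relatives differed. Eif4b, which stimulates the helicase eIF4A, read 9300, 11190 and 11390 CPM in WT subpolysomes and 473.7, 518.1 and 450.1 CPM in WT polysomes (log2 -4.52, SE 0.16). Eif4h, which encodes a related helicase stimulator, read 369, 398 and 371.7 CPM in WT subpolysomes and 692.4, 595.8 and 651.4 CPM in WT polysomes (log2 0.72, SE 0.11). The 2 stimulators therefore had opposite calls, and the KO ratios were -4.28 and 0.82.

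The helicases were likewise unequal. Eif4a2 was lower in polysomes at log2 -1.83 (SE 0.14) in WT and -1.99 in KO, whereas Eif4a1 was at -0.24 (95% interval -0.49 to 0.02) and -0.12 and did not pass the test. Under upper quartile scaling Eif4a1 became lower in both genotypes (log2 -0.38 and -0.27), and DESeq2 called it lower in WT (log2 -0.26). Eif4e, the cap-binding protein itself, was higher in polysomes (log2 0.81 in WT and 0.73 in KO), as was Eif4g2 (0.97 and 0.73), which encodes a scaffold that does not bind eIF4E. Eif4g1, the main scaffold, was at -0.27 in WT (edgeR adjusted p 0.0384) and at -0.25 in KO (adjusted p 0.0539), and the WT call was lost in 11 of 18 alternatives, 9 of which left out 1 library (WT polysome replicate 2 or 3, KO polysome replicate 1, or any subpolysome library).

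The inhibitors of cap binding and the other cap binders were lower in polysomes for 5 of the 6 tested in WT and 4 of 6 in KO. None was higher. Among all genes 30.9% were lower in WT and 29.9% in KO, and 32.8% and 31.7% were higher. Eif4ebp2 had 78.81, 85.31 and 89 CPM in WT subpolysomes and 22.54, 17.94 and 22.17 CPM in WT polysomes (log2 -2.07, SE 0.13), with a KO ratio of -1.77. Eif4ebp1 was at -0.62 in WT and -0.63 in KO, and Eif4ebp3 at -0.76 and -0.50. The Eif4ebp3 call in KO was lost without KO subpolysome replicate 3 or any KO polysome replicate. Eif4e2, which encodes a cap binder that competes with eIF4E, was at -0.55 and -0.50.

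Of the 4 factors of subunit joining and later steps, 3 were higher in polysomes in both genotypes (background 32.8% in WT and 31.7% in KO). Eif5a2 passed in neither (log2 0.37 in WT and 0.04 in KO). Eif6, which keeps the large subunit from joining too early, read 327.1, 311.7 and 445.4 CPM in WT polysomes and 65.74, 67.48 and 76.06 CPM in WT subpolysomes. Polysome libraries exceeded subpolysome libraries throughout, and the 5.0-fold difference was the largest toward polysomes in the set (log2 2.32, SE 0.18; 2.29 in KO). Eif5a, which helps ribosomes through difficult peptide bonds, read 1990, 2125 and 2251 CPM against 852, 867.1 and 909.6 CPM (log2 1.23, SE 0.14; 1.42 in KO). Eif5b, the GTPase of subunit joining, was at 0.74 in both genotypes, although it was lower in polysomes when set against total RNA (log2 -0.68 in WT).

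**Figure D2:**
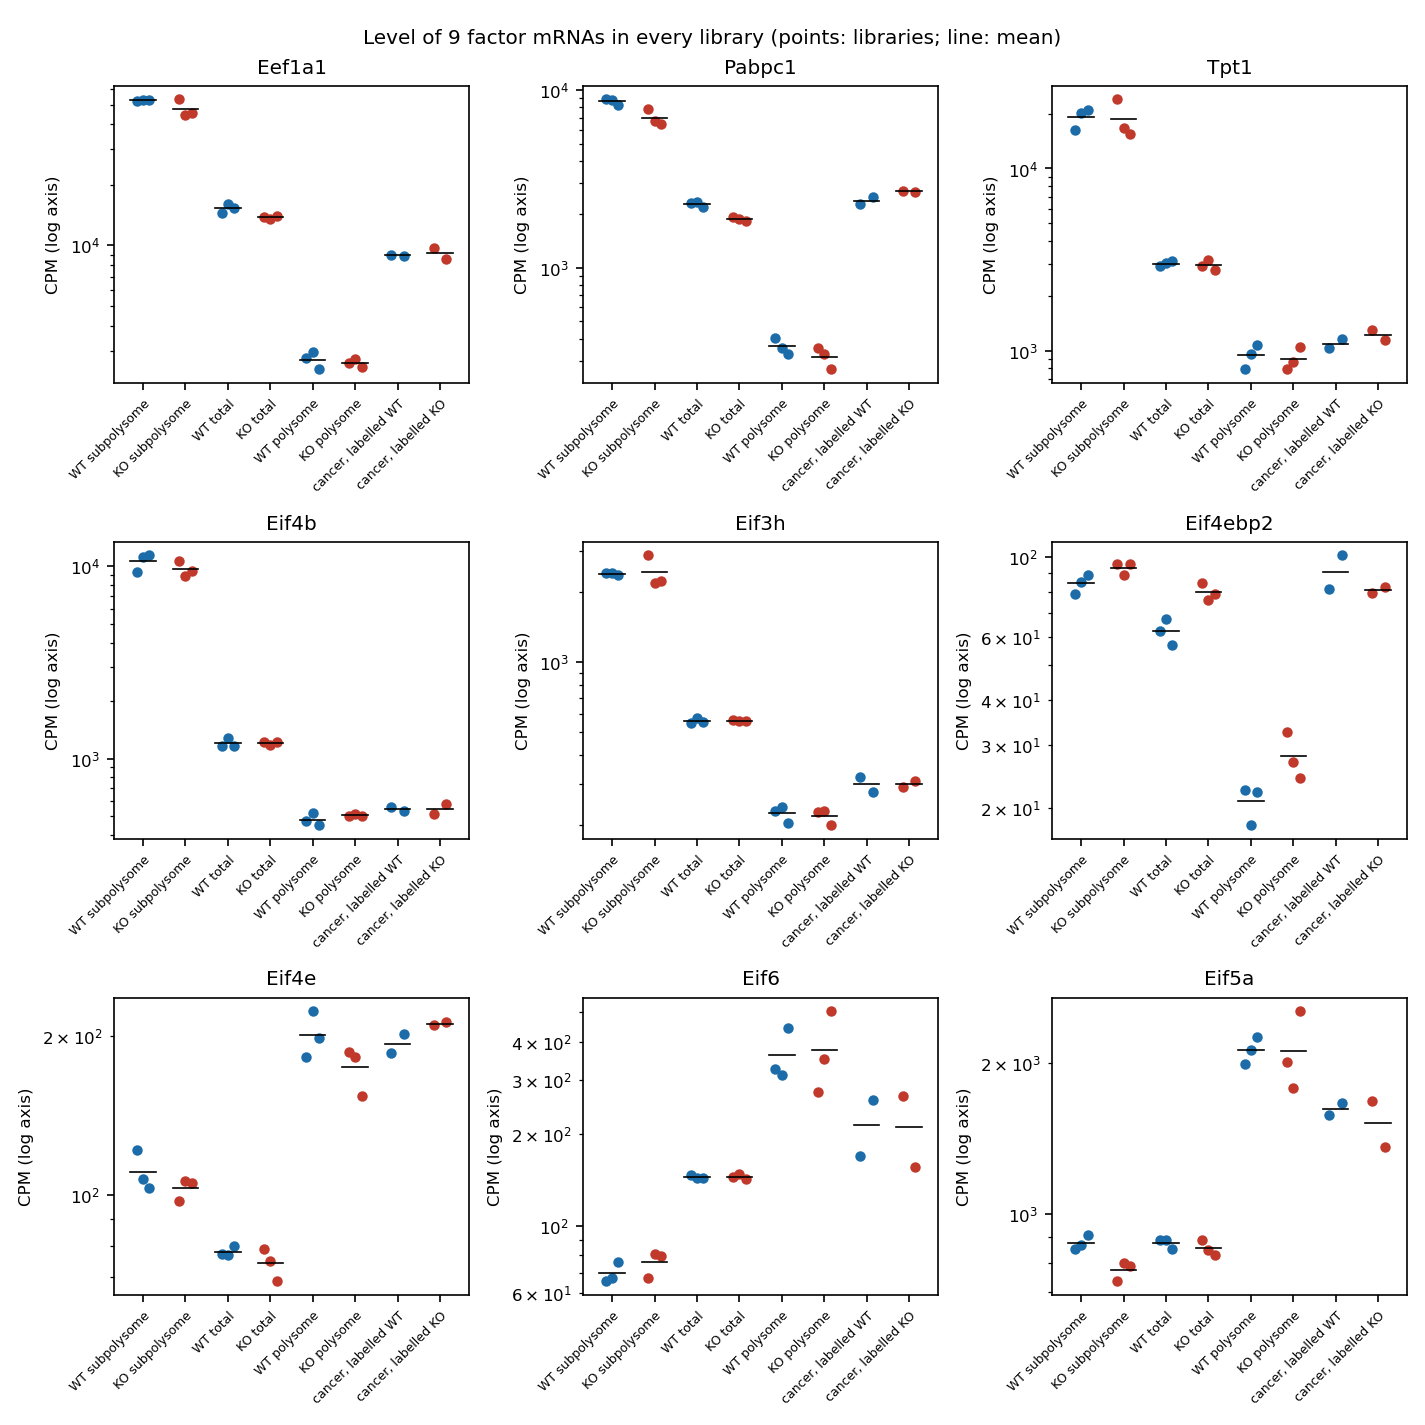
Level of 9 factor mRNAs in every library (y axis, CPM on a log axis; points are libraries, lines are group means; blue for WT and red for KO labels). Eef1a1, Pabpc1, Tpt1, Eif4b and Eif3h step down from subpolysome to total RNA to polysome, Eif6 steps up in the same order, and Eif5a and Eif4e are highest in polysomes among the primary libraries.

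The 10 listed TOP mRNAs were all lower in polysomes, with a median log2 of -4.07 in WT (-4.63 to -1.22) and -3.92 in KO, on a list that is not independent evidence of that direction. The 44 other factor mRNAs tested had 18 higher and 21 lower calls in WT and a median of -0.11. Among all genes 32.8% were higher and 30.9% lower in WT, and 29.9% were lower in KO. In KO organoids 15 of the higher calls and 29 of the lower calls were shared with WT, and no factor mRNA was called in opposite directions. Calls in WT alone were those of Eef1e1, Eif2b3, Eif3a, Eif4e3 and Eif4g1, and Eif1b was called in KO alone, which is no test of a difference between genotypes. The WT call of Eif4e3 (log2 -0.31) was lost in 11 of 18 alternatives and the KO call of Eif1b (0.35) in 4. Eif2s2, Eif4a1, Eif4enif1 and Eif5a2 passed in neither. Upper quartile scaling moved the median of all genes to -0.13 in WT and -0.14 in KO, so ratios of that size depend on the scaling. Plain shares of counts would move the ratios upward, and by more than this.

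Whether the genotype changed the ratio was tested directly, as the KO minus WT difference of the polysome to subpolysome log2 ratio. No factor mRNA passed by edgeR (background 0.00747% higher and 0% lower) or by DESeq2. At an unadjusted p under 0.05 there were 2 of 54, against 5.66% of all genes: Eif1a (log2 -0.40) and Eif1ad (0.35), both with an edgeR adjusted p of 0.877. The 54 differences ran from -0.40 to 0.35 with a median of 0.04, beside 0.02 for all genes. For Pabpc1 the difference was 0.13 (SE 0.20), for Eef1a1 0.11 (SE 0.21), and for Tpt1 0.00 (SE 0.26).

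The polysome fraction was also set against total RNA, which shares the polysome libraries with the comparison above. In WT 27 factor mRNAs were higher in polysomes (background 33.1%) and 22 lower (background 34.8%), against 67.9% of all genes in either direction. The counts were 27 (background 32.7%) and 22 (background 33.4%) in KO, against 66.1%. The median was 0.20 in both genotypes, beside -0.03 and -0.01 for all genes. Most depleted were Pabpc1 at log2 -2.70 in WT and -2.59 in KO and Eef1a1 at -2.53 and -2.41, followed by Eif3f at -2.04 and -1.82.

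At the other end of that comparison stood Eif1a (1.80 in WT and 1.58 in KO), Eef1e1 (1.71 and 1.65), Eif2s2 (1.49 and 1.37) and Eif4e (1.33 and 1.22). In WT organoids Eef1e1 read 33.39, 30.2 and 31.81 CPM in total RNA and 88.9, 117.2 and 115.8 CPM in polysomes. Of the TOP list, 9 were lower (background 34.8% in WT and 33.4% in KO) and Eef1d was higher (0.49 in WT and 0.46 in KO). Some mRNAs changed side between the 2 references. Eif3k and Eif3m were higher in polysomes than in total RNA (0.52 and 0.58 in WT) while lower than in subpolysomes (-2.22 and -2.45). Eif3b and Eif5b, in contrast, were lower than in total RNA (-0.58 and -0.68) and higher than in subpolysomes (0.97 and 0.74).

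Levels of different mRNAs were compared as CPM per kilobase of the union of GENCODE M21 exons. In WT total RNA Eef1a1 was highest at 6119 ± 306 CPM per kilobase (SD, n = 3), followed by Tpt1 at 1262 ± 43.1 and Eef1b2 at 509 ± 9.96. The next 4, Eif5a (369), Pabpc1 (350), Eif3h (347) and Eef1g (346), overlapped with their neighbours and could not be ordered, and so did Eif4b (269) and Eif3f (268). At the low end stood Eif2b3 at 3.44 ± 0.0577 and Eif5a2, the second eIF5A gene, at 0.656 ± 0.0611 CPM per kilobase. The Eef1a1 to Eif5a2 range thus covered about 4 orders of magnitude.

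The order changed with the fraction. In WT polysomes Eef1a1 (1087 ± 105) was followed by Eif5a (893 ± 54.9), Tpt1 (395 ± 60.1) and Eif4a1 (284.5 ± 27.0), and these 4 did not overlap. In WT subpolysomes the order was Eef1a1 (21060 ± 75.5), Tpt1 (8028 ± 1039) and then Eif4b (2378 ± 257) and Eef1b2 (2212 ± 46.2), of which the last pair overlapped. Together the 58 genes took 4.0 to 4.26% of the counts in total RNA, 2.0 to 2.15% in polysomes, 6.70 to 8.40% in subpolysomes and 3.41 to 3.73% in cancer organoids. Eif3j1 and Eif3j2, near-identical copies of the loosely bound eIF3 subunit j, had 0 counts in all 22 libraries, and the germline cap binder Eif4e1b had at most 1. How reads that match several places were counted is not given in the sources used here, which leaves zeros of such copies uncertain, and likewise the levels of Eef1a1, Tpt1 and others with many processed copies in the genome.

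Between KO and WT most factor mRNAs did not pass the test in any kind of primary library. In total RNA 6 of 54 rose (background 27.0% of 13198 genes) and 10 fell (background 26.3%), so that 29.6% were called against 53.2% of all genes tested. The median log2 change was 0.00, as for all genes, and the range was -0.62 to 0.39. No factor mRNA changed by 4-fold, a size reached by 1.98% of all genes upward and 2.48% downward. In RNA from whole cultures, fewer cells of a type and less RNA per cell cannot be told apart, and this holds for every difference between organoids given here.

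Eif4e3 fell most. It encodes an unusual cap-binding relative of eIF4E. Its total RNA level was 66.97, 66.55 and 64.16 CPM (WT) and 42.94, 39.95 and 42.9 CPM (KO). The WT polysome libraries gave 63.75, 67.47 and 61.24 CPM and the KO polysome libraries 41.21, 37.26 and 39.37 CPM, and the subpolysome values were 86.97, 75.91 and 67.69 (WT) against 50.59, 36.26 and 49.85 CPM (KO). WT and KO did not overlap in any of the 3 kinds of library. The log2 changes were -0.62 (SE 0.05, edgeR adjusted p 6.87e-07) in total RNA, -0.68 (SE 0.12, adjusted p 0.000429) in polysomes and -0.74 (SE 0.14, adjusted p 0.000201) in subpolysomes, and the call held under all 13 alternatives in each.

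Eef1e1 also fell in all 3, by log2 -0.48 (SE 0.06, edgeR adjusted p 3e-05) in total RNA, -0.58 (SE 0.13, adjusted p 0.00293) in polysomes and -0.42 (SE 0.12, adjusted p 0.0107) in subpolysomes. Its total RNA level was 21.81, 22.6 and 22.45 CPM in KO, below every WT value given above. The polysome level was 71.38, 66.67 and 72.87 CPM in KO against 88.9 CPM or more in WT. The subpolysome call was lost without KO subpolysome replicate 1 or 3, with an adjusted p of up to 0.0587.

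Of the 3 inhibitory 4E-binding proteins, 2 rose in total RNA (background 27.0%) and polysomes (background 14.9%). None passed in subpolysomes, where 22% of all genes were called in either direction. In total RNA Eif4ebp2 read 62.31, 67.37 and 57 CPM for WT and 84.68, 75.99 and 78.66 CPM for KO, without overlap (log2 0.39, SE 0.06, edgeR adjusted p 0.000242). In polysomes it rose from 22.54, 17.94 and 22.17 CPM to 32.49, 26.88 and 24.29 CPM (log2 0.45, SE 0.15, adjusted p 0.0347). The low-level Eif4ebp3 rose from 7.983, 8.498 and 7.62 CPM to 10.12, 9.881 and 10.8 CPM in total RNA (log2 0.38, SE 0.08, adjusted p 0.00219) and by log2 0.54 in polysomes (adjusted p 0.0248). Both polysome calls were lost when KO polysome replicate 1 or 2 or WT polysome replicate 3 was left out (log2 0.31 to 0.55 for Eif4ebp2 over all alternatives, adjusted p up to 0.185), and that of Eif4ebp2 also without WT polysome replicate 2. Eif4ebp1, the best known of the 3, did not pass in any kind of library (log2 0.02 in total RNA, 95% interval -0.09 to 0.14), and in subpolysomes neither Eif4ebp2 (0.16, edgeR adjusted p 0.318) nor Eif4ebp3 (0.30, adjusted p 0.374) passed.

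**Figure D3:**
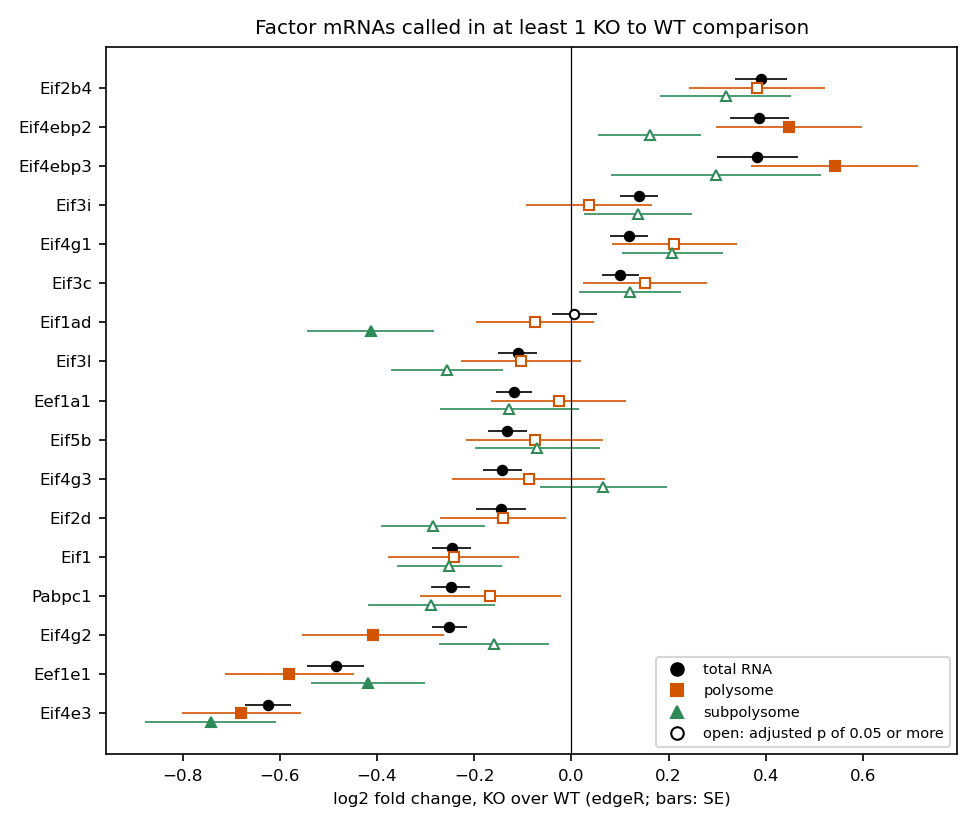
KO minus WT log2 change (x axis, edgeR estimate with SE) in total RNA, polysomes and subpolysomes for the 17 factor mRNAs called in at least 1 of the 3. Eif4e3 and Eef1e1 lie left of 0 in all 3 kinds of library, at -0.74 to -0.42, and Eif4ebp2, Eif4ebp3 and Eif2b4 lie right of 0.

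Of the remaining calls in total RNA, Eif2b4, the delta subunit of eIF2B, rose from 24.42, 24.97 and 23.61 CPM to 32.52, 30.87 and 30.43 CPM (log2 0.39, SE 0.05, edgeR adjusted p 7.69e-05). In polysomes its change was 0.38 with an adjusted p of 0.0515, and it passed there with the replicate number as a block (adjusted p 0.00948). Eif3i, Eif4g1 and Eif3c rose by log2 0.14, 0.12 and 0.10. Among those that fell, Eif4g2 went from 1157, 1157 and 1166 CPM to 968.5, 965.1 and 933.6 CPM (log2 -0.25, SE 0.04, adjusted p 0.000121), Pabpc1 from 2323, 2352 and 2191 to 1945, 1877 and 1846 CPM (-0.25, SE 0.04), and Eif1 from 404.9, 391.2 and 406.3 to 339.8, 326.7 and 328 CPM (-0.25, SE 0.04). None of these overlapped between genotypes, but neither did some factor mRNAs without a call, such as Eef1b2, Eif2b1 and Eif4h. Lack of overlap therefore does not set the called mRNAs apart here or in the fractions, and its share over all genes is not given.

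The other 5 mRNAs that fell, Eif4g3, Eif2d, Eif5b, Eef1a1 and Eif3l, changed by log2 -0.14 to -0.11. Several of these small calls rested on single libraries. Without WT total replicate 3 the calls of Eif3c, Eif3i, Eif4g1 and Eif2d were lost, without WT total replicate 2 those of Eif3c, Eif2d, Eif3l and Eef1a1, and without WT total replicate 1 those of Eif3c and Eif3l. Leaving out KO total replicate 3 ended those of Eif3c, Eif4g1, Eif2d, Eif3l and Eif5b, KO total replicate 2 those of Eif3c, Eif4g1, Eif3l and Eif5b, and KO total replicate 1 those of Eif3c and Eif2d. With all 18 primary libraries in 1 fit the counts in total RNA dropped to 2 higher and 4 lower, and without WT total replicate 3 there were 3 higher.

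In polysomes 2 factor mRNAs rose (background 14.9%) and 3 fell (background 13.8%), against 28.8% of all genes in either direction. Beside the 4 given above, Eif4g2 fell from 1717, 2059 and 1880 CPM to 1525, 1453 and 1189 CPM (log2 -0.41, SE 0.15, edgeR adjusted p 0.045), a call lost without KO polysome replicate 2 or 3 or WT polysome replicate 2 or 3 and under upper quartile scaling. The polysome calls given so far come from a fit without pairing. Same-numbered WT and KO polysome libraries deviated together, although the labels name no pairs. With the number as a block Eif5a2 was called lower as well (log2 -0.42, edgeR adjusted p 0.0418). In subpolysomes none rose by edgeR (background 11%) or by DESeq2 and 3 fell (background 11%), against 22% of all genes in either direction. There 11 factor mRNAs had an unadjusted p under 0.05 (20.4%, against 32.4% of all genes).

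The subpolysome call beside those of Eif4e3 and Eef1e1 was that of Eif1ad, an eIF1A domain protein. The WT libraries gave 35.77, 39.96 and 41.77 CPM and the KO libraries 29.14, 26.64 and 31.6 CPM, without overlap (log2 -0.41, SE 0.13, edgeR adjusted p 0.0231). It was lost without KO subpolysome replicate 1 or 2 or WT subpolysome replicate 2 or 3. DESeq2 called 9 factor mRNAs lower in subpolysomes (12.3% of all genes were lower by DESeq2), and so did the fit of all 18 primary libraries (15.3% of all genes). The median change was -0.03 in polysomes and -0.05 in subpolysomes, beside 0.01 for all genes in each.

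Of the TOP list, 2 fell in total RNA (background 26.3%), Pabpc1 and Eef1a1, and edgeR called none in polysomes or subpolysomes. In these fractions 28.8% and 22% of all genes were called in either direction. In subpolysomes Pabpc1 was at log2 -0.29 (edgeR adjusted p 0.127) and was called lower by DESeq2 (adjusted p 0.0126), in the fit of all 18 primary libraries (adjusted p 0.0461) and without KO subpolysome replicate 1 (log2 -0.38, adjusted p 0.0316). The 8 TOP mRNAs that did not pass in total RNA had changes between -0.12 (Eif3f) and 0.09 (Eef1d) log2.

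The rest of the pathway was followed with 40 other genes, listed with earlier results of these data known, of which 39 were tested in each primary comparison. In total RNA 13 rose and 9 fell (56.4% called, near the 53.2% of all genes), in polysomes 4 rose and 2 fell (15.4%, against 28.8%), and in subpolysomes 5 rose and 3 fell (20.5%, near the 22% of all genes). Those that rose in all 3 were Eef2k, which encodes an inhibitory kinase of eEF2 (log2 0.74, 0.81 and 0.80), Mknk2, a kinase of eIF4E (0.57, 0.66 and 0.53), and Mcts2, a re-initiation factor (0.85, 0.82 and 0.78). Bzw2, an eIF5 mimic (-0.44, -0.54 and -0.51), and Paip1, a partner of the poly(A)-binding protein (-0.36, -0.48 and -0.40), fell in all 3. Between polysome and subpolysome 16 were higher and 9 lower in WT (64.1% called, near the 63.7% of all genes), with Eef2 (log2 -4.79) and Pabpc4 (-3.66) lowest and Mcts1 (1.74) highest. In KO 13 were higher and 10 lower (59% called, against 61.6%).

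In the cancer organoids the comparison of libraries labelled KO with those labelled WT gave no call for any factor mRNA by edgeR (background 0%) or DESeq2. At an unadjusted p under 0.05 there was 1 of 54, against 0.757% of all genes. This was Eif5a2, which read 11.3 and 15.2 CPM in the libraries labelled WT and 21.36 and 32.7 CPM in those labelled KO (log2 1.03, SE 0.33, edgeR adjusted p 1). Eif4e3 read 4.252 and 41.89 CPM in the libraries labelled WT and 44.15 and 16.3 CPM in those labelled KO. The spread of Eif4e3 within each label was larger than the difference between the labels. In each label the library with the lower Arid1a level also had the lower Eif4e3 level, an order seen after the fact and not tested. With 2 libraries per label, and Arid1a counts against the label in 1 of each, the comparison is of the labels as deposited.

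Set against primary total RNA, the cancer libraries were higher for 31 factor mRNAs (background 38.8% of 14305 genes) and lower for 17 (background 39.0%), against 77.8% of all genes in either direction. The median was 0.51, beside -0.03 for all genes, and 3.70% of the factor mRNAs were more than 4-fold higher, against 12.2% of all genes. The submitters' processing notes name Bowtie for the primary libraries and not for the cancer libraries, and the tissues form separate sets, so tissue, batch and processing cannot be told apart. Upper quartile scaling moved the median of all genes to -0.16.

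Eif2s3x was the most increased. Primary total RNA held 36.21, 38.53 and 35.34 CPM (WT) and 36.12, 33.71 and 32.77 CPM (KO). The cancer libraries read 441 and 448.9 CPM (labelled WT) and 436.1 and 483.2 CPM (labelled KO), which was 12.5-fold higher (log2 3.65, SE 0.05, edgeR adjusted p 8.75e-09). Its Y-linked copy Eif2s3y, which is no member of the set and encodes nearly the same protein, read 80.0 to 88.1 CPM in primary total RNA. In the cancer libraries Eif2s3y read 48.58 and 40.27 CPM (labelled WT) and 47.54 and 0.0639 CPM (labelled KO), the last from 4 counts. The sum of both copies was 113 to 124 CPM in primary total RNA and 483 to 490 CPM in cancer.

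Members of eIF4F differed from each other in cancer. Higher were the scaffold Eif4g1, the helicase Eif4a1 and the cap-binding Eif4e, whereas the second helicase Eif4a2 (log2 -0.75, edgeR adjusted p 7.78e-06) and the cofactor Eif4b (-1.16) were lower and the scaffold Eif4g3 did not pass (0.08). Eif4g1 read 289.7 to 323.3 CPM in the 6 primary total RNA libraries and 1355 and 1220 CPM (labelled WT) and 1200 and 1125 CPM (labelled KO) in cancer (log2 1.96, SE 0.05). Eif4a1 read 562.2 to 623.8 CPM in primary libraries and 1476 to 1833 CPM in cancer (1.48, SE 0.07), and Eif4e 68.6 to 79.81 and 185.1 to 212.1 CPM (1.38, SE 0.05). Eif5a2 was 6.0-fold higher (log2 2.58), from at most 3.49 CPM in primary total RNA to 11.3 CPM or more in cancer. Eef1e1 (1.58), Eif3a (1.52), Eif5 (1.32), Eif3b (1.28), Eif2b1 (1.24), Eif1ad (1.24) and Eif5b (1.23) followed.

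Lower in cancer were Eif3f, Eif4ebp1, Eef1b2, Tpt1 and Eif3k. Eif3f read 656.9 to 814.3 CPM in primary total RNA and 161.3 to 235.1 CPM in cancer (log2 -1.85, SE 0.10). Eif4ebp1 read 97.51 to 108.5 and 29.44 to 42.45 CPM (-1.47, SE 0.11). Eef1b2 and Tpt1 were lower by log2 -1.42 and -1.39, and Eif3k by -1.18. The 6 eIF3 core subunits named above lay between -1.85 and 0.08, and the core subunits a and c were at 1.52 and 0.63.

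**Figure D4:**
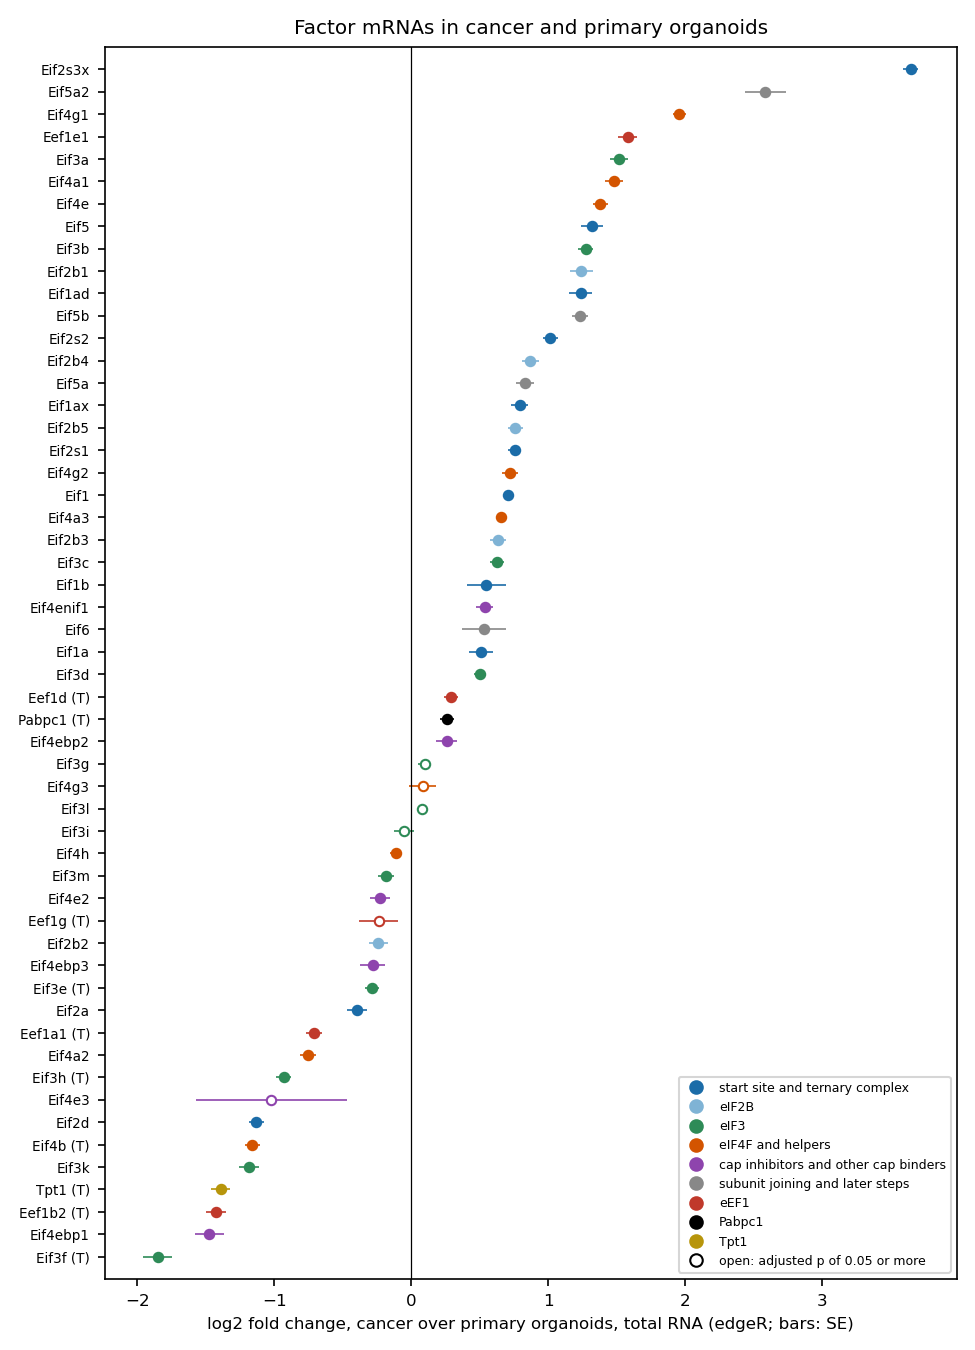
Cancer minus primary log2 difference in total RNA (x axis, edgeR estimate with SE) for the 54 factor mRNAs tested, coloured by role, with (T) for listed TOP mRNAs. Eif2s3x stands apart at 3.65, and 7 of the 10 TOP mRNAs were called lower, beside 39.0% of all genes.

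By role, the start site and ternary complex factors had 9 of 11 higher and 2 lower in cancer (Eif2d at -1.13 and Eif2a at -0.40), eIF2B 4 of 5 higher, and the factors of subunit joining and later steps 4 of 4 higher. eIF3 had 4 higher and 5 lower of 12, and the eEF1 mRNAs 2 higher and 2 lower of 5. Beside these counts, 38.8% of all genes were higher and 39.0% lower. Of the TOP list 7 were lower and 2 higher, Pabpc1 (0.26) and Eef1d (0.29), with a median of -0.82, while the 44 other factor mRNAs had 29 higher and 10 lower and a median of 0.63. The call for Eif6 (0.53) was lost without the cancer replicate 2 labelled WT or the cancer replicate 1 labelled KO, and those of Eif4h (-0.11) and Eif4ebp3 (-0.28) were lost without some primary libraries, each of the 6 for Eif4h and WT total replicate 2 or KO total replicate 3 for Eif4ebp3. Of the 40 other pathway genes 20 were higher and 13 lower (82.5% called, near the 77.8% of all genes). Pdcd4, an inhibitor of eIF4A, was lowest among them at -2.80.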

How the data were processed

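The 22 deposited tables hold whole-number read counts per gene symbol, 1 library each, and carry no normalization by the authors. Per the submitters' processing notes, HTSeq and mm10 were used for all libraries and Bowtie for the 18 primary libraries. Of versions, annotation, strand setting and the treatment of reads that match several places nothing is given in the sources used here, so overlapping or near-identical genes may exchange counts. Rn45s, a ribosomal RNA gene, took 0.191 to 5.59% of the counts of a library. In total RNA its share was 2.44 to 2.58% in WT and 2.02 to 2.08% in KO, without overlap. The genotypes overlapped in polysomes (0.208 to 2.7% in WT and 0.307 to 0.653% in KO). They also overlapped in subpolysomes (0.439 to 0.983% and 0.88 to 5.59%), where KO subpolysome replicate 3 stood apart at 5.59%. The KO minus WT test for Rn45s nevertheless passed in each kind (edgeR log2 -0.31, -1.74 and 2.13). Its part in the genotype differences was not tested beyond leaving it out. Replicates differed by more than sampling noise (chi-square per degree of freedom 11.9 to 247 over 20 pairs), so each counted as 1 sample.

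Counts were tested with edgeR 4.0.16 (R 4.3.3, limma 3.58.1): TMM scaling, edgeR's low-count filter, quasi-likelihood fits, and Benjamini-Hochberg adjustment over all genes tested, with a threshold of 0.05. Each genotype comparison was fitted on its own libraries, the fraction comparisons on 12 libraries each, and the cancer against primary comparison on the 10 total RNA libraries. CPM values use TMM sizes over all 22 libraries. The code was tested on simulated data. Alternatives were DESeq2 1.42.0, RLE and upper quartile scaling, no filter, each library left out, the replicate number as a block, and all 18 primary libraries in 1 fit. Leaving Rn45s out and crossing the cancer pairs were added after seeing the data.

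The members, the TOP and pathway lists and the cell type markers were chosen with earlier results of these data known. Named in each comparison were the 5 highest and 5 lowest called members with an average log2 CPM of at least 4, a set of core factors, and, where the text turns on them, members chosen after their values were seen, such as the less abundant Eif4ebp3 and Eif5a2. Same-numbered WT and KO polysome libraries deviated together (r = 0.23, 0.24 and 0.40), so these numbers were taken as pairs in the alternative fit with a block. The main fits used no pairing, that of the polysomes included. The total RNA (0.26, 0.09 and -0.11) and subpolysome numbers (0.07, 0.06 and 0.09) did not meet the limit of 0.1. Same-numbered polysome and subpolysome libraries did not meet it either (0.29, 0.08 and 0.18 in WT, and 0.15, 0.09 and 0.2 in KO). Cancer and primary libraries carry no shared pairing.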

Additional observations from a re-analysis of the deposited data

How the results depend on the processing

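The counts of factor mRNAs called between the genotypes moved with the fit. With all 18 primary libraries in 1 fit, 2 rose and 4 fell in total RNA, 5 fell in polysomes and 9 fell in subpolysomes. DESeq2 also gave 9 lower in subpolysomes, and upper quartile scaling gave 1 higher there. The calls over all genes moved with the fit too, so these counts alone are no result about the factor mRNAs. In subpolysomes 15.3% of all genes fell in the fit of all 18 primary libraries and 12.3% by DESeq2, beside 11% in the main fit. With the replicate number as a block, 1 rose and 5 fell in subpolysomes, 3 rose and 4 fell in polysomes, and 5 rose and 10 fell in total RNA. Leaving out 1 library at a time gave 3 to 6 higher and 7 to 10 lower in total RNA, 0 to 2 higher and 2 to 4 lower in polysomes, and 0 to 1 higher and 2 to 4 lower in subpolysomes. The cause of these shifts was not tested. Counts for the fraction comparisons, the genotype by fraction difference, the cancer labels and cancer against primary stayed within 1.5 times under every alternative run, among them the block (18 higher and 31 lower between polysome and subpolysome in WT, 17 and 30 in KO, 0 for the difference). The cancer numbers deviated in opposite directions (r = -0.41 for both), and the crossed pairing, chosen after seeing the data, gave 0 higher and 0 lower. No called value of a factor mRNA changed sign. Upper quartile scaling moved the median of all genes by over 0.1 only between polysome and subpolysome and between cancer and primary.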
